A study of Mus musculus with 2 samples.

Results

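T cells of aged mouse hindlimb muscle were picked out of the single-cell RNA-Seq data by their own transcripts. A barcode was selected on at least 3 UMIs (unique molecular identifiers, each marking 1 captured transcript) summed over the T cell receptor complex genes Cd3e, Cd3d, Cd3g, Trac and Trbc2, with at most 1 UMI summed over Cd79a, Ms4a1, Pecam1, Pdgfra and C1qa, which mark B cells, endothelial cells, fibro-adipogenic progenitors (FAPs) and macrophages. This rule found 275 of the 14984 barcodes that passed the filters on detected genes, mitochondrial UMIs and hemoglobin UMIs. Both libraries came from 24-month-old female C57Bl/6J mice whose hindlimb muscles had received 3 intramuscular injections over a week. In the ATRA+agonist library (treated) the injections held all-trans retinoic acid (ATRA), the retinoid X receptor alpha agonist CD3254 and the retinoic acid receptor gamma agonist BMS961, and in the DMSO vehicle library they held the solvent alone. For each library, muscle cells from 2 mice were combined and sorted as live cells with propidium iodide. There is therefore 1 library per group, no test between groups was possible, and all intervals below are 95% intervals that cover counting error only, not the spread between mice or between cells.

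T cells recognize peptides on major histocompatibility complex molecules through the T cell receptor, which signals through the CD3 chains. CD8 T cells kill target cells and secrete chemokines and interferon gamma, while CD4 T cells direct other immune cells, and regulatory T cells restrain them. Naive and central memory T cells carry receptors for lymph node entry and exit (Ccr7 and S1pr1) and the transcription factors Tcf7, Lef1 and Klf2, and effector cells lose these and gain granzymes and the chemokine Ccl5. In muscle, T cells are rare at rest and gather after injury.

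The treated library held 196 T cells among 7467 filtered barcodes (2.62%, interval 2.27 to 3.01%), and the vehicle library held 79 among 7517 (1.05%, interval 0.833 to 1.31%). The share was 2.50 times higher in the treated library (interval 1.93 to 3.24). Among barcodes with a UMI of the leukocyte gene Ptprc, T cells made up 11.6% (194 of 1674) in the treated and 7.98% (78 of 977) in the vehicle library, a ratio of 1.45 (interval 1.13 to 1.87). B cells, gated on at least 3 UMIs of Cd79a, Ms4a1 and Cd79b, were more numerous as well, with 651 barcodes in the treated and 81 in the vehicle library. Depth per T cell was alike, with a median of 5876.5 UMIs and 2162.5 detected genes in the treated and 5961 UMIs and 2186 genes in the vehicle library. The summed T cell counts were 1282290 and 529811 UMIs. No barcode was a T cell in both libraries, and 1 T cell barcode was also held by the other library, of 43 barcodes that both libraries held.

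Few barcodes lay near the threshold. The summed count of the 5 T cell genes had a median of 18.5 UMIs in treated and 17 in vehicle T cells. There were 2 treated and 5 vehicle members at exactly 3 UMIs, and 3 treated and 4 vehicle barcodes stayed outside at 2 UMIs. Doublets were not called separately, and the limit on genes of other cell types stands in for such a step. Without members that had over 2 UMIs of B cell, endothelial, FAP, macrophage and mast cell markers, the ratio of shares was 2.71.

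That limit removed 98 treated barcodes (1.31% of those kept) and 23 vehicle barcodes (0.306%) that carried at least 3 T cell UMIs. Most were removed by Pecam1 (CD31), an adhesion molecule of endothelial cells that naive T cells are also known to carry. Pecam1 alone accounted for 89 of the 98 treated and 21 of the 23 vehicle barcodes. No UMI of 7 other endothelial genes (Cdh5, Kdr, Flt1, Egfl7, Cav1, Fabp4 and Aqp1) was found in 72 of these 89 treated barcodes (80.9%, interval 71.2 to 88.5%) and in 19 of the 21 vehicle barcodes (90.5%, interval 69.6 to 98.8%). Among barcodes with at least 2 Pecam1 UMIs and no T cell UMI, the same was true of 14.0% in the treated and 13.1% in the vehicle library. The 83 treated and 20 vehicle barcodes with at most 2 UMIs of the 7 genes had a median of 6678 and 6563 UMIs and of 19 and 11 T cell UMIs. Of these, 63 treated (75.9%) and 12 vehicle barcodes (60.0%) had a UMI of Ccr7, Lef1 or S1pr1. Adding them to the T cells gave 279 treated and 99 vehicle cells and a ratio of shares of 2.84. The values below are for the 275 members, and those with the added barcodes, an alternative chosen after the data were seen, are given beside several of the results that they move.

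Markers that the rule did not use were rich in these cells. The 10 genes with the highest level in T cells relative to all other filtered barcodes, by the lower of the 2 libraries' ratios, were Pdcd1, Gzmk, Themis, Cd3d, Izumo1r, Sh2d1a, Trbc1, Cd6, Trbc2 and Cd3g, of which Cd3d, Trbc2 and Cd3g belong to the rule. Themis, needed for T cell development, was 75.9 times higher than in the other barcodes of the treated library and 695 times higher in the vehicle library. The other barcodes of the treated library include the 98 that the rule left out. Bcl11b, a transcription factor of T cell identity, had UMIs in 144 of 196 treated and 68 of 79 vehicle cells, and the kinase Lck in 149 and 53. No UMI of Cd3e or Trac was found in 13 treated and 7 vehicle members. A UMI of the natural killer genes Ncr1, Klrb1c or Klre1 was present in 16 treated and 18 vehicle members, and one of Il1rl1, the interleukin 33 receptor of regulatory T cells and type 2 innate lymphoid cells, in 11 and 13. Neutrophil and tenocyte markers had no UMI in treated and 2 UMIs each in vehicle T cells, and of the muscle stem cell markers only Sdc4 was detected.

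T cells of both lineages were present at shares that differed by no more than the counting error. Cells with Cd8a or Cd8b1 UMIs and no Cd4 or Trdc numbered 59 (30.1%, interval 23.8 to 37.0%) in the treated and 29 (36.7%, interval 26.1 to 48.3%) in the vehicle library, a ratio of 0.820 (interval 0.572 to 1.17). Cells with Cd4 and none of the others numbered 79 (40.3%, interval 33.4 to 47.5%) and 24 (30.4%, interval 20.5 to 41.8%), a ratio of 1.33 (interval 0.912 to 1.93). The intervals of both ratios include 1 and do not show that the shares are alike. After each cell was thinned to 1000 UMIs, CD8 shares were 17.3% and 20.3% and CD4 shares 15.8% and 7.59%. Endothelial cells (gated on at least 3 UMIs of Pecam1, Cdh5, Kdr and Flt1 and no T cell UMI, with a median of 3533.5 and 3815 UMIs), which lack these genes, had a Cd4 UMI in 4.49% of treated and 6.15% of vehicle cells and a Cd8b1 UMI in 0.0330% and 0.0662%. None of these lineage genes was detected in 49 treated and 24 vehicle T cells. Trdc, the constant chain of the gamma-delta receptor, was found in 6 treated and 2 vehicle cells. Foxp3, the master regulator of regulatory T cells, was found in 11 treated cells (5.61%) and 2 vehicle cells (2.53%), and the ratio of 2.22 had an interval of 0.503 to 9.78.

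Expression was then compared between the libraries over the 7616 genes with at least 20 UMIs in the T cells. A gene was counted as higher or lower where its summed level differed by over 2-fold and the interval of the ratio excluded no difference. With this rule 263 genes (3.45%) were higher and 316 genes (4.15%) were lower in treated T cells, and the median log2 ratio of all genes compared was -0.01. Levels are UMIs per 1000000 UMIs of the T cells of a library (CPM), and log2 ratios are treated over vehicle. UMIs of 1 cell are not independent, so that a gene carried by few cells has a wider error than its interval states, and the number of cells is given for that reason.

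Genes of naive and central memory T cells were higher in the treated library. Of the 11 genes of this list 8 were higher, 1 was lower and 2 differed by less than 2-fold, with a median log2 ratio of 1.40. Ccr7, the chemokine receptor for lymph node entry (chr11:99144196-99155077, GRCm38), had 136 UMIs in 36 of 196 treated cells and 9 UMIs in 6 of 79 vehicle cells, 106 against 17.0 CPM (log2 ratio 2.64, interval 1.68 to 3.80). S1pr1, the receptor for lymph node exit (chr3:115710433-115715072), was at 211 CPM in 85 treated cells and 47.2 CPM in 15 vehicle cells (log2 ratio 2.16, interval 1.57 to 2.82). Both levels were higher in the treated T cells by more than the counting intervals of either library.

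Transcription factors of the naive state followed the same direction. Lef1 (chr3:131110471-131224356) was at 199 CPM in 70 treated cells and 58.5 CPM in 14 vehicle cells, a log2 ratio of 1.76 (interval 1.22 to 2.35). Tcf7 (chr11:52252371-52283014) was at 211 CPM in 116 cells and 84.9 CPM in 27 cells, a log2 ratio of 1.31 (interval 0.85 to 1.80). Satb1, a chromatin organizer of T cells, was at 749 and 283 CPM (log2 ratio 1.40, interval 1.15 to 1.66), and Klf2, which drives S1pr1, at 350 and 174 CPM (log2 ratio 1.01, interval 0.69 to 1.35). The interleukin 7 receptor Il7r (589 and 355 CPM, log2 ratio 0.73) and Bach2 (680 and 502 CPM, log2 ratio 0.44) were within 2-fold. The exception in direction was Igfbp4, with 9 treated and 12 vehicle UMIs.

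**Figure D1:**
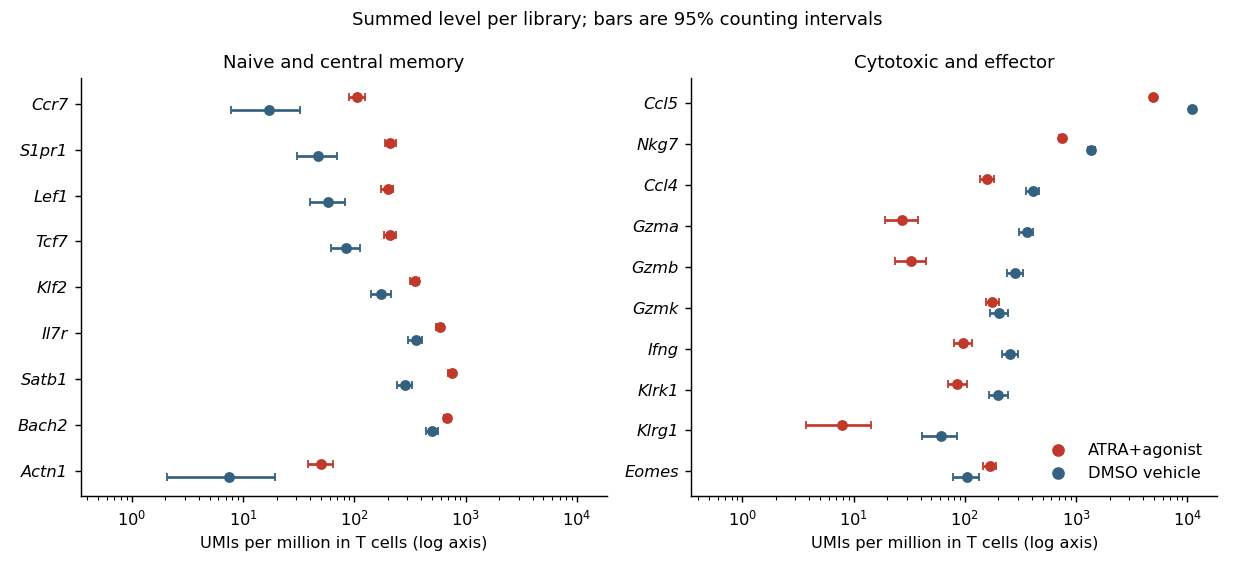
Level of 9 naive and central memory genes (left) and 10 cytotoxic and effector genes (right) in the T cells of each library, in UMIs per 1000000 on a log axis, with points for the summed level and bars for the 95% counting interval. Every gene drawn on the left lies higher in the ATRA+agonist library, and every gene drawn on the right lies lower except Eomes, with overlapping bars for Gzmk. The genes drawn are a choice from lists of 11 and 20. Igfbp4, the naive gene that was lower (log2 ratio -1.69), is not drawn.

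Depth and other cells bear on these values as follows. Thinned to 1000 UMIs, the share of cells with a UMI was 11.7% against 2.53% for Lef1, 16.8% against 5.06% for Tcf7 and 18.9% against 6.33% for S1pr1, but 4.08% against 3.80% for Ccr7. The log2 ratio of the thinned levels was 0.69 for Ccr7 and 0.47 for Klf2. Unthinned shares were 35.7% and 17.7% for Lef1, 59.2% and 34.2% for Tcf7, 43.4% and 19.0% for S1pr1 and 18.4% and 7.59% for Ccr7. Endothelial cells had a Lef1 UMI in 0.297% (treated) and 0.562% (vehicle) and a Tcf7 UMI in 1.72% and 2.05%. Their Ccr7 share was 3.47% in the treated and 0.331% in the vehicle library, a difference in the same direction as that of the T cells, and its part in the T cell value was not tested. S1pr1 and Klf2 are made by endothelial cells themselves, where they were slightly lower in the treated library (log2 ratios -0.20 and -0.37). In macrophages, gated in the same way on C1qa, C1qb, C1qc and Csf1r, S1pr1 was at 18.4 CPM in both libraries. Treated B cells had higher S1pr1 (log2 ratio 0.79, interval 0.24 to 1.40), Klf2 (0.34, interval 0.14 to 0.54) and Ccr7 (0.33, interval 0.05 to 0.63). Klf2 was also higher in the treated macrophage and FAP gates (log2 ratios 0.30 and 0.34). The higher levels of S1pr1 and Klf2 are thus not particular to T cells. With the added Pecam1-carrying barcodes, the log2 ratio was 2.45 for Lef1 and 1.73 for Satb1, and that of Klf2 dropped to 0.54.

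Cytotoxic and effector genes were lower in the treated library in part. Of 19 genes compared none was higher and 9 were lower, with a median log2 ratio of -0.93. The median was -0.19 without members that had a UMI of gamma-delta, natural killer or type 2 innate genes, and between -1.15 and -0.68 under the other alternatives. The chemokine Ccl5 (chr11:83525778-83530518) was the most abundant of them, with 6290 UMIs in 86 treated cells and 5857 UMIs in 57 vehicle cells, 4905 against 11055 CPM (log2 ratio -1.17, interval -1.22 to -1.12). The share of cells with Ccl5 was 43.9% (interval 36.8 to 51.1%) and 72.2% (interval 60.9 to 81.7%), and after thinning 39.3% and 63.3%. In endothelial cells it was 0.661% and 0.529%.

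The granzymes differed among themselves. Gzmb, a protease of killer cells (chr14:56258838-56262260), was at 32.8 CPM in 14 treated cells and 281 CPM in 20 vehicle cells (log2 ratio -3.10, interval -3.63 to -2.60). The top cell held 21.4% of the treated and 36.9% of the vehicle Gzmb UMIs. With the added Pecam1-carrying barcodes, which held 73 Gzmb UMIs in 7 treated barcodes and 4 in 1 vehicle barcode, its log2 ratio was -1.93. Gzma was at 27.3 CPM in 4 treated and 359 CPM in 10 vehicle cells (log2 ratio -3.72), with 54.3% and 20.5% of the UMIs in the top cell. CD8 cells held 165 of the 190 vehicle Gzma UMIs, in 7 cells. Without members that had a UMI of the gamma-delta, natural killer or type 2 innate genes Trdc, Ncr1, Klrb1c, Klre1, Il1rl1 or Calca, the log2 ratio of Gzma was 0.18 (interval -1.15 to 1.77). Klre1 was itself lower in treated T cells (41 and 48 UMIs, log2 ratio -1.50), and 27 of its 48 vehicle UMIs were in CD8 cells, so that this alternative also leaves out CD8 cells with effector genes. Gzmk, a granzyme that accumulates in T cells of aged mice, was at 176 CPM in 70 treated cells and 204 CPM in 29 vehicle cells, and its log2 ratio of -0.21 had an interval of -0.55 to 0.13.

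Receptors and cytokines of effector cells were lower as well, with some values set by 1 cell. Klrg1, a receptor of terminal effector cells, had 10 UMIs in 7 treated and 32 UMIs in 17 vehicle cells (log2 ratio -2.95), and the activating receptor Klrk1 was at 85.8 and 200.1 CPM (log2 ratio -1.22). The chemokine Ccl4 was at 158 and 408 CPM (log2 ratio -1.36) and the death ligand Fasl at 53.0 and 108 CPM (log2 ratio -1.02). Ifng was at 96.7 CPM in 45 treated and 255 CPM in 21 vehicle cells (log2 ratio -1.40), but 57.0% of the vehicle UMIs came from 1 cell, and the log2 ratio was -0.38 without the top cell of each library. In the same way 82.0% of the vehicle UMIs of the chemokine Xcl1 came from 1 cell, and its log2 ratio moved from -1.63 to 0.37 without it and the top treated cell. Nkg7 (741 and 1368 CPM, log2 ratio -0.89), the perforin gene Prf1 (46.8 and 64.2 CPM, log2 ratio -0.46) and the regulator Tbx21 (114 and 174 CPM, log2 ratio -0.61) were within 2-fold. Eomes, a related regulator, had the opposite sign, at 167 and 104 CPM (log2 ratio 0.68).

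Levels per cell were summed over each list. Over the 11 naive genes, T cells had a median of 25.3 UMIs per 10000 in the treated and 13.0 in the vehicle library. Over the 20 cytotoxic genes the median was 8.77 in the treated and 95.6 in the vehicle library, and 34 of 196 treated cells and 5 of 79 vehicle cells had none. Most of this sum was Ccl5, with 6290 of the list's 9083 treated and 5857 of its 8166 vehicle UMIs. The median therefore depends largely on whether a cell had Ccl5, as 43.9% of treated and 72.2% of vehicle cells did. Summed over all cells, the list was at 7083 and 15413 CPM.

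**Figure D2:**
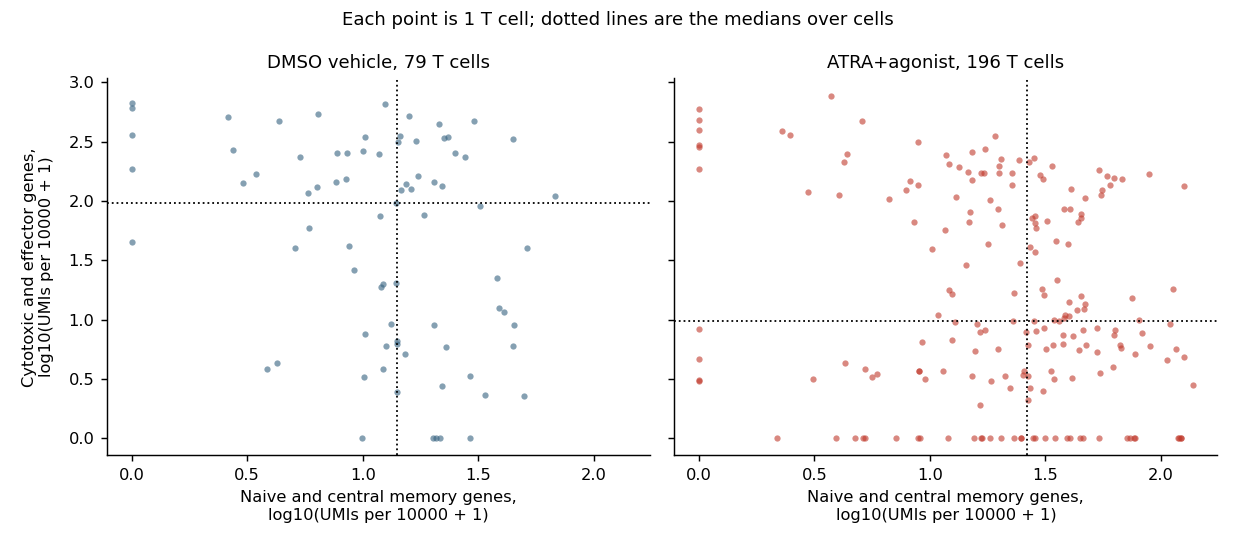
Each point is 1 T cell, placed by its UMIs per 10000 of naive and central memory genes (x axis) and of cytotoxic and effector genes (y axis), both as log10 after adding 1, with dotted lines at the medians over cells. In the vehicle library (79 cells) more cells lie in the upper part, and in the ATRA+agonist library (196 cells) many lie at low cytotoxic values, at a median of 8.77 against 95.6 per 10000. Most UMIs of the cytotoxic list are of Ccl5.

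Some of the genes described above were also counted cell by cell, which is no independent support for their levels. A UMI of Ccr7, Lef1 or S1pr1 without one of Ccl5 was seen in 77 treated cells (39.3%, interval 32.4 to 46.5%) and 9 vehicle cells (11.4%, interval 5.34 to 20.5%). Ccl5 without any of these genes was seen in 44 treated cells (22.4%, interval 16.8 to 28.9%) and 38 vehicle cells (48.1%, interval 36.7 to 59.6%). Cells with both made up 21.4% and 24.1%, and cells with neither 16.8% and 16.5%. With the added Pecam1-carrying barcodes the share with one of the 3 naive genes was 65.2% against 40.4%, and that with Ccl5 was 41.2% against 65.7%.

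Both shares differed in the same direction within each lineage, but the intervals of the treated and vehicle shares overlapped in each case. Of CD8 cells, 47 of 59 treated (79.7%) and 28 of 29 vehicle cells (96.6%) had Ccl5, and 32 (54.2%) and 8 (27.6%) had one of the 3 naive genes. Of CD4 cells, 18 of 79 treated (22.8%, interval 14.1 to 33.6%) and 11 of 24 vehicle cells (45.8%, interval 25.6 to 67.2%) had Ccl5, and 53 (67.1%) and 9 (37.5%) had one of the naive genes. The summed Ccl5 level in CD4 cells went the other way, with a log2 ratio of 0.60 (interval 0.42 to 0.79). The median log2 ratio of the cytotoxic genes was -0.90 in CD8 and 0.28 in CD4 cells. Within CD8 cells 8 of 9 naive genes compared were higher and none was lower, and 6 of 18 cytotoxic genes were lower and none was higher, against 3.71% higher and 8.24% lower among all 4636 genes compared there. Within CD4 cells 3 of 8 naive genes were higher and none was lower, while 3 of 13 cytotoxic genes were higher and 5 were lower, against 6.55% higher and 4.33% lower among all 4823 genes. Few CD4 cells set several of these cytotoxic values. Of the lower genes, Xcl1 (109 UMIs) and Gzmb (13 UMIs) were each found in 1 vehicle CD4 cell and Ifng (80 UMIs) in 4. Of the higher genes, Ccl3 and Ccl4 were found in 6 and 7 treated CD4 cells. S1pr1 was at a log2 ratio of 3.12 (interval 1.50 to 5.45) in CD8 cells, where the vehicle library had 3 UMIs, and 2.36 (interval 1.40 to 3.52) in CD4 cells. Whether the lineages differ in their response was not tested.

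**Figure D3:**
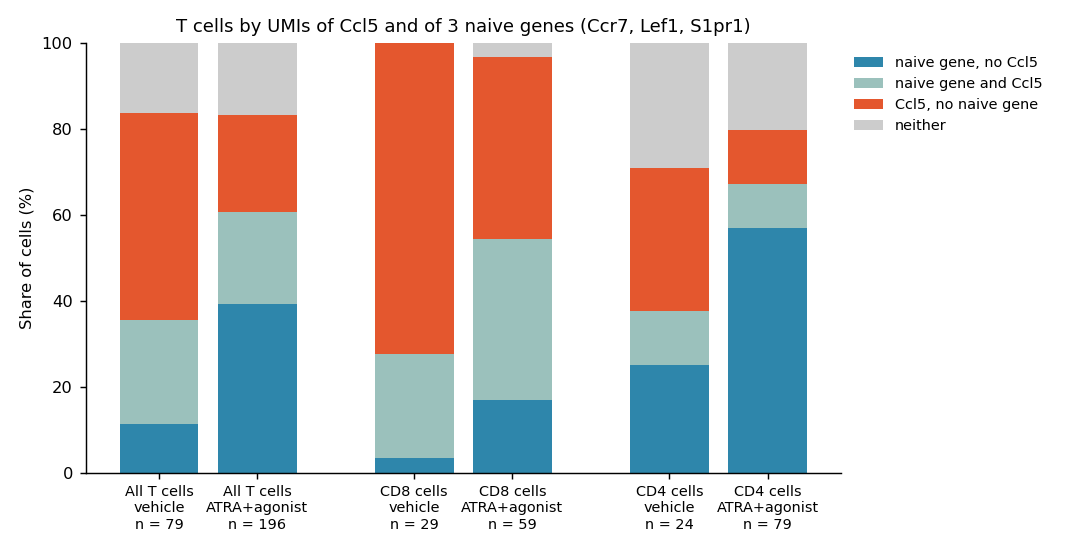
Share of cells (%) with a UMI of 1 of 3 naive genes, of Ccl5, of both or of neither, for all T cells, CD8 cells and CD4 cells of each library, with the number of cells under each bar. Cells with a naive gene and no Ccl5 make up 39.3% of all treated and 11.4% of all vehicle T cells. This share is also larger in the treated CD8 and CD4 cells, with overlapping counting intervals.

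The remaining lists were compared in the same way. Of 20 genes of T cell receptor signaling none was higher or lower, with log2 ratios between -0.50 and 0.33. The 44 nuclear genes of oxidative phosphorylation, the 15 genes of MHC class I presentation and the 13 mitochondrially encoded genes also held none, with median log2 ratios of -0.19, -0.20 and 0.13. Of 38 interferon response genes 1 was higher (Ifit3, 22 and 2 UMIs, log2 ratio 2.18, interval 0.16 to 5.32) and 1 was lower (Irgm1). Among immediate early genes 3 of 32 were higher, which were Ier3 (196 and 83.0 CPM), Ppp1r15a (265 and 126 CPM) and Klf2.

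Few genes of the retinoic acid pathway were measurable in T cells. Of 24 genes 5 reached 20 UMIs, and 9 had no UMI in either library, among them the ATRA-degrading enzymes Cyp26a1 and Cyp26b1 and the synthesizing enzymes Aldh1a1, Aldh1a2 and Aldh1a3. Rarg, the receptor that BMS961 targets, was lower, with 16 UMIs in 14 treated and 19 UMIs in 15 vehicle cells (log2 ratio -1.52, interval -2.58 to -0.49). Rara was at 31.2 and 32.1 CPM, and Rxra, the target of CD3254, had 3 and 1 UMIs. Of the gut homing receptors that ATRA is known to induce in T cells, both integrin chains were within 2-fold, with Itga4 at 481 and 540 CPM (log2 ratio -0.17) and Itgb7 at 139 and 181 CPM (log2 ratio -0.38). Ccr9, with 6 and 2 UMIs, was too low to be compared.

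Receptors of tissue T cells were lower in part. Cxcr6, a chemokine receptor of resident T cells, was at 60.0 CPM in 29 treated and 143 CPM in 30 vehicle cells (log2 ratio -1.26, interval -1.73 to -0.78), and Ccr2, a receptor for recruitment to inflamed tissue, at 62.4 and 142 CPM (log2 ratio -1.18). Itga1 had 13 and 20 UMIs (log2 ratio -1.90), and in all 2 of 9 tissue residency genes were lower. Cd69 was at 209 and 128 CPM (log2 ratio 0.70). Among 11 regulatory T cell genes compared, Il2ra (42.9 and 117 CPM, log2 ratio -1.45) and Il1rl1 (56.1 and 185 CPM, log2 ratio -1.72) were lower, while Ctla4 (566 and 340 CPM, log2 ratio 0.74) and Icos (440 and 249 CPM, log2 ratio 0.82) were within 2-fold. Of members with an Il1rl1 UMI, only 4 of 11 treated and 8 of 13 vehicle cells had a Cd3e or Trac UMI. A Cd4 UMI was present in 3 and 4 of them. The Il1rl1 value can therefore not be assigned to regulatory T cells.

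Of the inhibitory receptors, Havcr2 was lower (36 and 30 UMIs, log2 ratio -1.01), Pdcd1 was at 74.1 and 106 CPM (log2 ratio -0.51) and Tigit at 54.6 and 28.3 CPM (log2 ratio 0.95). Proliferation genes were lower in 5 of 9 cases, but few cells carried them. Mki67 was found in 5 treated and 5 vehicle cells with 8 and 27 UMIs, and Top2a in 20 and 13 cells with 28 and 56 UMIs, 53.6% of the vehicle UMIs in 1 cell. With the added Pecam1-carrying barcodes the Top2a log2 ratio dropped from -2.28 to -0.67.

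**Figure D4:**
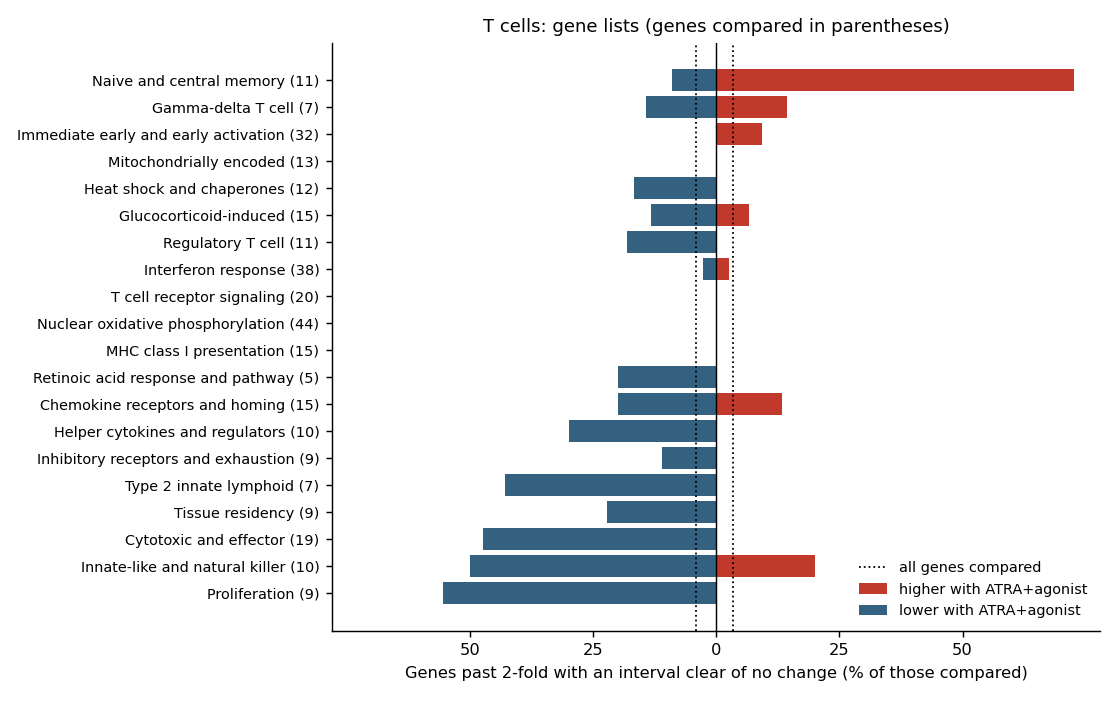
Share of the genes compared in each list (number in parentheses) that were higher (right) or lower (left) in ATRA+agonist T cells by over 2-fold with a 95% counting interval clear of no difference, ordered by the median log2 ratio. Dotted lines mark the shares over all genes compared, 3.45% higher and 4.15% lower. The naive and central memory list has 8 of 11 genes to the right, and the cytotoxic list 9 of 19 to the left.

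Among the 12 largest ratios upward of genes as high in T cells as in the other gates were, in order, Esm1, Sostdc1, Gm10563, Il1r2, Slamf6, Dscam, Tbc1d4, Adk, Slc24a3, Polr3b and St8sia1. Slamf6, a receptor of stem-like T cells, had 191 UMIs in 75 treated and 15 UMIs in 12 vehicle cells (log2 ratio 2.40, interval 1.64 to 3.26). Tbc1d4, a regulator of glucose uptake, had 276 UMIs in 69 and 25 UMIs in 12 cells (log2 ratio 2.19, interval 1.60 to 2.84). Il1r2, a decoy receptor for interleukin 1, had 54 UMIs in 21 cells and 4 UMIs in 3 cells. Sostdc1, a secreted BMP and Wnt antagonist, had 91 UMIs in 9 treated cells, 41.8% of them in 1 cell, and none in the vehicle library, so that its log2 ratio was at least 3.65. Thinned to 1000 UMIs per cell, the log2 ratio of Polr3b was 0.10 against 1.92 unthinned, and that of Sostdc1 was at least 0.56. With the added Pecam1-carrying barcodes Esm1 was at a log2 ratio of 1.63, against 3.68 without them.

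The 12 largest ratios downward were Il17a, Frmd5, Gzma, Gzmb, Raph1, Hip1, Serpinb6b, Ltb4r1, Il1rl1, Ganab, Cnnm2 and Xcl1. Il17a, the cytokine of type 17 cells, had 72 UMIs in 2 vehicle cells, 95.8% in 1 of them, and 1 UMI in the treated library (log2 ratio -7.45, interval -12.77 to -4.92). Hip1, an endocytic adaptor, was spread over more cells, with 109 UMIs in 48 treated and 165 UMIs in 43 vehicle cells (log2 ratio -1.87, interval -2.24 to -1.52). Raph1, which binds actin regulators, had 48 UMIs in 36 and 75 UMIs in 28 cells (log2 ratio -1.92). Cnnm2 had a log2 ratio of -1.65, which was -0.46 with a minimum of 5 T cell UMIs per barcode and -0.51 without likely doublets. Genes of FAPs, the matrix-forming progenitors of muscle, were also low in the treated T cells, but 77.4% of their vehicle UMIs came from 1 cell. Dcn had 91 vehicle UMIs with 91.2% in 1 cell, and the 8 FAP markers summed to 31.2 CPM (treated) and 410 CPM (vehicle).

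Markers of other cell types moved with the groups in part. The 9 B cell markers summed to 169 and 185 CPM, 9 endothelial markers to 205 and 102 CPM and 8 macrophage markers to 47.6 and 18.9 CPM. In treated T cells 1 cell held 45.6% of the endothelial and 1 cell 50.8% of the macrophage marker UMIs. The top vehicle cell held 11.1% and 20% of them. The 9 dendritic cell markers summed to 708 and 321 CPM, with 88.5% of the treated and 75.3% of the vehicle UMIs in 1 cell. The 6 smooth muscle and pericyte markers summed to 28.9 and 126 CPM, with 35.1% of the treated and 83.6% of the vehicle UMIs in 1 cell. The B cell genes Iglc2 and Fcmr were at 0 in both libraries. The 5 red blood cell genes summed to 316 CPM in treated and 883 CPM in vehicle T cells, and the filter on hemoglobin alone removed 5 treated and 16 vehicle barcodes that met the gene rule. Hbb-bs was lower in the treated library in all gates, with log2 ratios between -1.78 and -1.43. Without the members with over 2 UMIs of B cell, endothelial, FAP, macrophage and mast cell markers, Ccl5 had a log2 ratio of -1.03. Dendritic cell, smooth muscle and pericyte, and red blood cell genes were not among those markers. The part of other markers in the remaining values was not tested.

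Fkbp5, which glucocorticoids induce, was lower in treated T cells, at 48.4 and 136 CPM (log2 ratio -1.49, interval -2.00 to -0.98). It was lower in each other gate too, with log2 ratios between -1.62 and -0.77. Thinned to 1000 UMIs per cell, the log2 ratio in T cells was -0.57 (interval -1.86 to 0.80). Mt1, a metallothionein, had the opposite sign in T cells and in endothelial cells, with 48 UMIs in 5 treated and 6 UMIs in 2 vehicle T cells (log2 ratio 1.72), 68.8% of the treated UMIs in 1 cell, and a log2 ratio of -1.07 in the endothelial gate.

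CD8 and CD4 cells were last compared with each other within each library, so that differences between the libraries do not enter. Of 6681 genes with at least 20 UMIs, 55 (0.823%) were higher in CD8 cells by over 2-fold, with intervals above no difference, in both libraries, and 113 (1.69%) were higher in CD4 cells. With the added Pecam1-carrying barcodes the first number was 87. The median depth was 7435 UMIs in CD8 and 5298 in CD4 cells of the treated library and 6087 in both classes of the vehicle library.

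On the CD8 side, the 10 genes with the highest ratio by the smaller of the 2 libraries' values were Il12rb2, Gzma, Atp8b4, Ly6c2, Tm6sf1, Gm44174, Klrc1, Hgsnat, Rasgef1b and 1700025G04Rik. Il12rb2, a chain of the interleukin 12 receptor, had 53 UMIs in CD8 and 2 in CD4 cells of the treated library and 34 and 2 in the vehicle library (log2 ratios 4.92 and 3.60). Ly6c2, a surface protein of memory CD8 cells, was at 352 against 14.0 CPM in the treated and 622 against 70.0 CPM in the vehicle library (log2 ratios 4.65 and 3.15). Klrc1, an inhibitory natural killer receptor of CD8 cells, had log2 ratios of 2.57 in both.

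On the CD4 side the 10 genes were Tnfsf11, Ankrd6, Gpm6b, Lrig1, Myo1e, Cd40lg, Nav2, Gsn, Ikzf2 and Izumo1r. Cd40lg, the helper ligand for B cells, had 61 UMIs in 25 CD4 cells and 1 UMI in CD8 cells of the treated library, and 34 UMIs in 15 CD4 cells and 3 UMIs in 1 CD8 cell of the vehicle library. Its log2 ratios of CD8 over CD4 were -5.74 (interval -11.07 to -3.21) and -3.99 (interval -6.34 to -2.32). Ikzf2, a factor of regulatory T cells, was at 25.1 against 1144 CPM in the treated and 118 against 1348 CPM in the vehicle library (log2 ratios -5.51 and -3.51). Tnfsf11, the ligand RANKL, had log2 ratios of -5.76 and -5.66. Izumo1r, a receptor of regulatory CD4 cells among others, was found in 32 of 79 treated and 5 of 24 vehicle CD4 cells. Gsn, a FAP gene, stands on this side with 76 UMIs in 5 vehicle CD4 cells and 15 UMIs in 10 treated CD4 cells. Of its 78 UMIs in all vehicle T cells, 92.3% came from 1 cell.

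**Figure D5:**
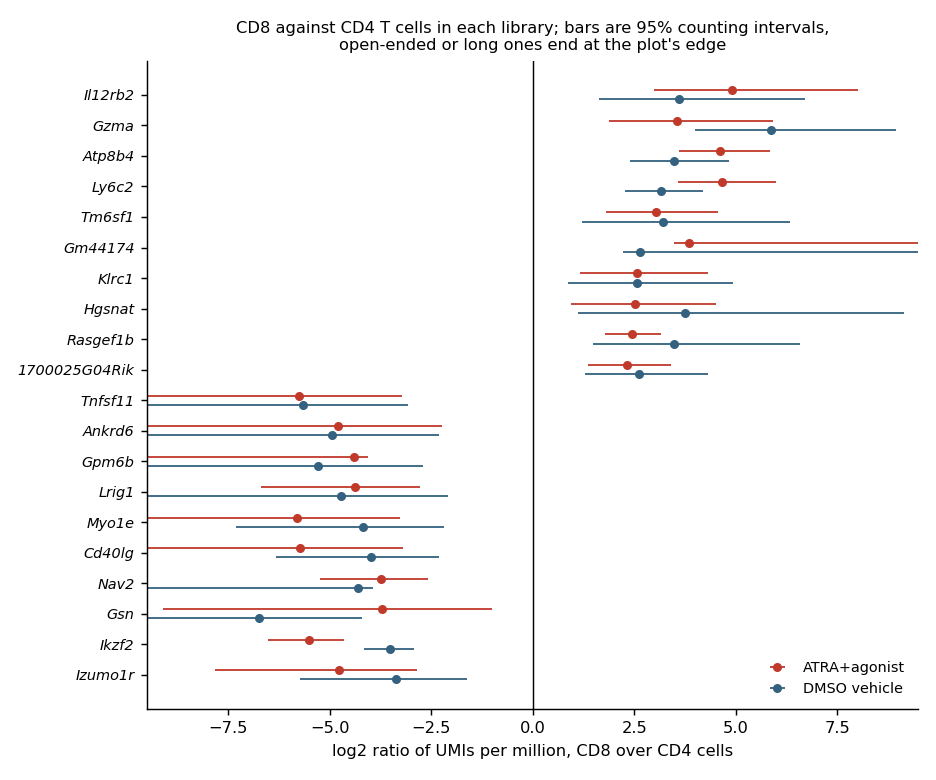
log2 ratio of UMIs per 1000000 in CD8 over CD4 T cells for the 10 genes most to each side, with points for each library and bars for the 95% counting interval, cut at the edge of the plot where long or open. All 20 genes lie on the same side in both libraries, as the rule for naming them requires.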

How the data were processed

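Single-cell RNA-Seq libraries were made with 10x Genomics 3′ chemistry. Both deposited tables give untransformed UMI counts for 32285 genes, produced by the authors' run of Cell Ranger 7.2.0 against mm10 (GRCm38). Barcodes were kept with 300 to 5000 genes, under 20% mitochondrial UMIs and under 0.25% Hbb- UMIs, the limits of the study's methods. T cells were gated as described above. UMIs were summed per library and class and scaled to 1000000. Shares have exact Clopper-Pearson intervals, ratios of shares log-scale intervals, CPM exact Poisson intervals and log2 ratios exact intervals conditional on the summed count, all at 95%. Only the log2 ratio intervals and the rule for higher and lower genes were run on simulated counts. Those counts were independent Poisson draws, as the intervals assume, and could not show the effect of UMIs that cluster in single cells. All intervals cover counting error only. A count of 0 was set to 3. Genes needed 20 UMIs. No p-value was computed, since each group has 1 library. Named genes were list genes, the 12 largest ratios each way (at least 50 UMIs, T cell level at least that of the endothelial, B cell, macrophage and FAP gates), 10 T cell markers (at least 100 UMIs) and 10 genes to each lineage. Members and gene lists were chosen with earlier results of these data known. A few genes are not reported here and were left out of the lists. Positions are from GENCODE M21 by gene identifier. Alternatives were 16 planned and 3 chosen after seeing the data. Python 3.11.15, NumPy 2.4.6, SciPy 1.17.1 and pandas 2.3.3 were used.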

Additional observations from a re-analysis of the deposited data

Results flagged for a closer look

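The 98 treated barcodes with T cell UMIs that the limit on other-lineage genes left out hold signal outside the comparisons. In those added back as an alternative (83 treated and 20 vehicle barcodes), Ccr7 was at 142 and 14.1 CPM, Lef1 at 504 and 42.2 CPM and Ccl5 at 1921 and 2784 CPM. Gzmb was at 114 and 28.1 CPM, Klf2 at 332 and 471 CPM and Il7r at 590.1 and 577 CPM, which for Gzmb and Klf2 is the opposite direction to that in the members. The Klf2 intervals overlapped (289 to 379 and 365 to 598 CPM). Gzmb was carried by only 7 of the 83 treated and 1 of the 20 vehicle barcodes. Cd8a or Cd8b1 UMIs were found in 24 of the 83 treated and in none of the 20 vehicle barcodes.

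Of 208 list genes compared within both lineages, 13 had log2 ratios of treated over vehicle with opposite signs in CD8 and CD4 cells and intervals clear of 0 in each. The difference itself was not tested, and each lineage rests on 1 library per group. The same count over all genes is not given, so that the 13 cannot be read as particular to the list genes. The chemokines Ccl3 (-3.37 in CD8 and at least 3.03 in CD4 cells), Ccl4 (-2.35 and 2.79) and Ccl5 (-1.36 and 0.60) were lower in treated CD8 and higher in treated CD4 cells. Ccl3 and Ccl4 had UMIs in 6 and 7 treated CD4 cells. Ccl5, though higher in level, was found in a smaller share of treated than of vehicle CD4 cells (22.8% against 45.8%). The same direction was seen for the transcription factors Maf (-1.34 and 1.28), Runx3 (-0.92 and 0.90) and Tox (-0.43 and 0.95), the interferon gene Isg15 (-1.06 and 1.67), the kinase Fyn (-0.26 and 0.83) and Stmn1 (-2.21 and 4.0, with 1 UMI in vehicle CD4 cells). The opposite direction was seen for the cytokine receptor Il7r (3.04 and -0.41), with 326 UMIs in 46 of 59 treated CD8 cells and 20 UMIs in 10 of 29 vehicle CD8 cells. It was also seen for Fosb (0.86 and -1.51), Nfkbia (1.17 and -0.55) and Samhd1 (0.79 and -0.49).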

How the results depend on the processing

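The T cell share was 1.45 times higher over barcodes with a Ptprc UMI, and between 2.41 and 2.84 times under the others. Thinned to 1000 UMIs, the CD4 share ratio was 2.08, genes higher and lower with treatment numbered 81 and 92, and genes to CD8 and CD4 numbered 1 and 5. With a minimum of 50 UMIs they were 149 higher and 138 lower. With the Pecam1-carrying barcodes 87 genes went to CD8. With no UMI of other-lineage genes, Xcl1 (0.27), Ifng (0.15) and the median of the innate and natural killer list (0.19) turned positive. Xcl1 was 0.37 without the top cells, Gzma 0.18 without members carrying innate genes, and the inhibitory receptor median 0.24 after thinning, each against a negative value; the cause was not tested. Across all alternatives 40 list medians moved by 0.25 or more, and 61 ratios of named genes left their interval. No paired analysis was possible because each group has 1 library.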
